A study of Mus musculus with 8 samples.

Results

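A group of 10 genes of mucosal secretory epithelium was followed through tumours of the mouse mammary carcinoma line 4T1.13. They were Tmprss2, Dmbt1, Clca1, Agr2, Pigr, Muc4, Cftr, Slpi, Wfdc2 and Ehf, out of 27179 genes in the table of read counts. The group was chosen by name with results of the same comparison already known and carried the working description of genes with large rises. The values did not bear that description out for most of the group, so it is called here by its rule, the 10 mucosal secretory genes. Only Tmprss2, Dmbt1 and Clca1 were far higher in the knockdown tumours, Tmprss2 by 68.0-fold, Clca1 by 63.6-fold and Dmbt1 with 1090 counts against 7. Slpi and Wfdc2 were 8.11-fold and 2.27-fold lower, Agr2 had no reads, and the levels of Pigr, Muc4, Cftr and Ehf overlapped between the groups. Because of how the genes were chosen, their differences between the groups are given as a description, with no p-value, and nothing is supported with them.

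The tumours came from BALB/c mice whose mammary fat pad had received 100000 cells, and the labels give day 14 after injection, when tumours of the knockdown line had begun to regress. Of 8 whole tumours sequenced, 4 arose from the 4T1.13-VC line and 4 from the 4T1.13-miR-21-KD line. Both lines carried a miArrest lentiviral vector with mCherry and hygromycin resistance, and both were pools of clones. In the miR-21-KD line the H1 promoter of the vector drove an RNA that binds and sequesters the mature microRNA, and in the VC line it drove a scrambled sequence. Whole tumours hold host cells beside the carcinoma cells that carried the vector. In such samples fewer cells of a type and less RNA per cell cannot be told apart.

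Mucosal surfaces are lined by epithelium that secretes a hydrated layer of mucins, antimicrobial proteins and immunoglobulin A. Goblet cells fold and release the mucins, ion channels draw water to the surface, and small protease inhibitors shield the tissue from the proteases of neutrophils. Epithelia of airway, gut, salivary gland and lactating mammary gland share much of this programme, which depends on epithelial transcription factors of the ETS, forkhead and grainyhead families.

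The microRNA that the knockdown vector sequesters is shown because its seed, in capitals, is the stretch that pairs with target transcripts (bases 2 to 8, sequence from RefSeq, GRCm38.p6, chr11:86584120-86584141, minus strand).
mmu-miR-21a-5p: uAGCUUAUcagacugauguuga
The seed pairs with ATAAGCT in a transcript. This heptamer was searched on the transcript strand in the 3′ UTR of the longest coding transcript of each gene (GENCODE M21, GRCm38) and was present in 0 of the 10 mucosal secretory genes. Among the tested genes, 899 of the 13369 with an annotated 3′ UTR held it, which is 6.72%, and the median 3′ UTR had 945 bases. The longest 3′ UTRs of the 10 were those of Ehf, with 3339 bases, and Cftr, with 1735 bases. The absence of these letters describes the annotated UTRs and says nothing about other ways in which a transcript can respond to miR-21.

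Between 12134849 and 13592695 reads per VC tumour and between 12550898 and 12783800 per miR-21-KD tumour were counted on genes. Levels are given as CPM, counts scaled to the TMM-adjusted size of each library, and differences in log2 are miR-21-KD minus VC. Of the tested genes, 19.6% passed an adjusted p of 0.05 as higher in miR-21-KD tumours and 19.5% as lower, 39.1% in all. The groups did not overlap for 16.3% of tested genes with miR-21-KD higher and for 18.9% with miR-21-KD lower. Of the 10 genes, 8 had enough counts for the fit, of which 3 were past the same threshold as higher (Tmprss2, Dmbt1, Clca1) and 1 as lower (Slpi). The groups did not overlap for 3 with miR-21-KD higher and for 2 with miR-21-KD lower (Slpi, Wfdc2). The median log2 difference of these 8 was 1.51, against -0.01 over all tested genes. Nothing is read from these counts, since the comparison had served to choose the genes.

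**Figure D1:**
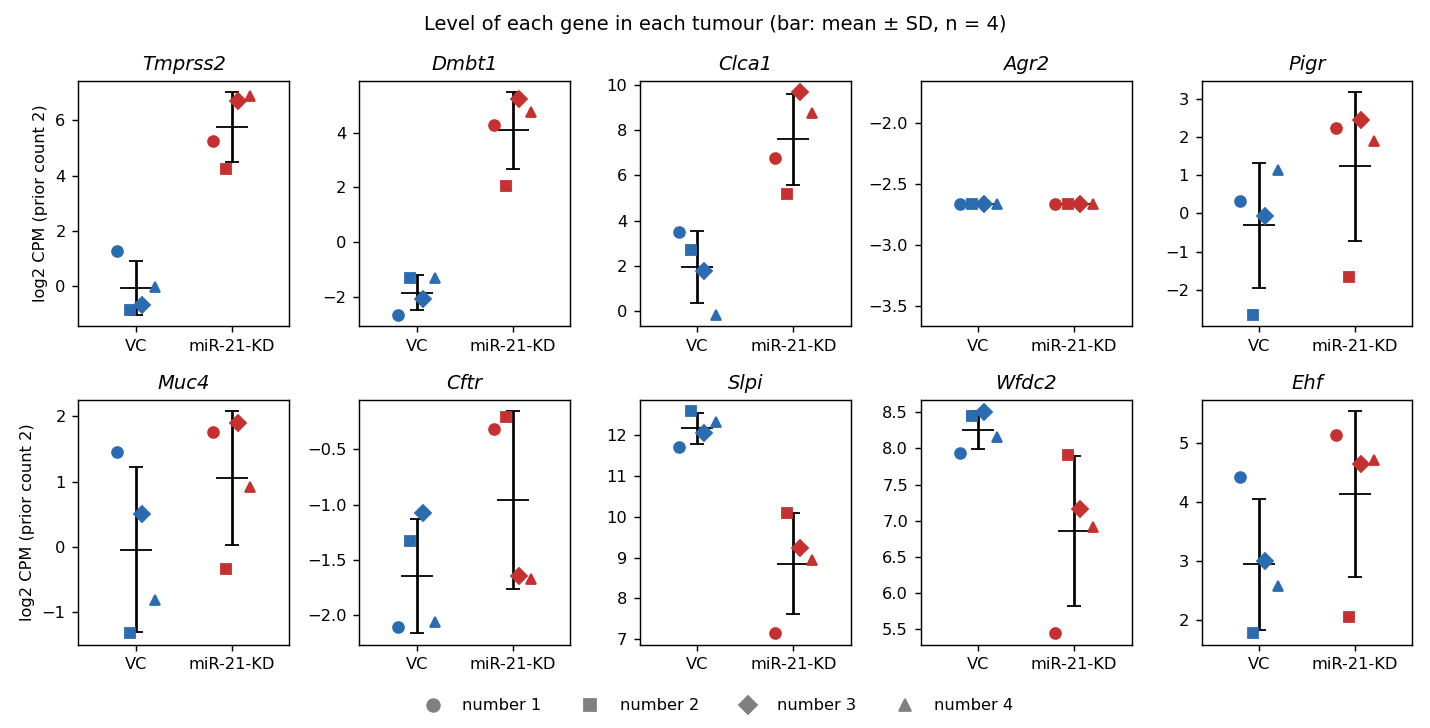
Level of each of the 10 mucosal secretory genes as log2 CPM with a prior count of 2, with 1 point per tumour, marker shapes for the tumour number and a bar for the mean ± SD of 4 tumours. Tmprss2, Dmbt1 and Clca1 lie higher in all 4 miR-21-KD tumours, Slpi and Wfdc2 lie lower, and Agr2 sits at the level of 0 counts in all 8.

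Tmprss2 (chr16:97564682-97611195, GRCm38, minus strand) encodes a membrane-bound serine protease of epithelia that is best known from prostate and airway. Its levels in the VC tumours 1 to 4 were 2.29, 0.399, 0.473 and 0.817 CPM. In the miR-21-KD tumours 1 to 4 they were 37.6, 18.6, 103 and 118 CPM. The lowest knockdown tumour, number 2, was thus above the highest control tumour, number 1, and within the knockdown group the highest level was 6.38 times the lowest. The means ± SD of 4 tumours were 0.994 ± 0.881 CPM for VC and 69.4 ± 48.8 CPM for miR-21-KD, and the log2 difference was 6.09 with a standard error of 0.79. Without VC tumour 1, the highest control, the log2 difference of Tmprss2 was 6.93, and without any 1 other tumour it was 5.71 to 6.396. Errors after ± are SDs of 4 tumours throughout.

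Dmbt1 (chr7:131032053-131121630, plus strand) encodes a secreted scavenger receptor glycoprotein of mucosal fluids that binds bacteria. It had 0, 3, 1 and 3 counts in the VC tumours 1 to 4. In the miR-21-KD tumours it had 237, 51, 458 and 344 counts, or 19.2, 4.01, 37.2 and 26.9 CPM. Every control tumour was at or below 3 counts, the number that a count of 0 allows, and every knockdown tumour was above it. Over the groups these are 1090 against 7 counts, and the ratio adjusted for library size was 158, with a 95% interval of 76.6 to 395 that covers counting error only. The fitted log2 difference was 7.21 with a standard error of 0.89, and with so few control reads it depended on the prior count.

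Clca1 (chr3:145003817-145032776, minus strand) encodes a secreted metalloprotease of goblet cells that is abundant in mucus. The VC tumours 1 to 4 had 11.3, 6.30, 3.31 and 0.736 CPM. The miR-21-KD tumours 1 to 4 had 108, 36.2, 814 and 430 CPM. The groups were apart, but the gene had the largest SD of log2 CPM of the 10 within the knockdown group, 2.01, with 22.5-fold between tumours 3 and 2, and the VC tumours spanned 15.3-fold. The means were 5.41 ± 4.53 and 347 ± 355 CPM, with a log2 difference of 5.99 and a standard error of 1.13. The log2 difference of Clca1 was 6.65 without VC tumour 1 and 5.13 without miR-21-KD tumour 3, and between 5.63 and 6.36 without any 1 other tumour.

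Slpi (chr2:164354070-164356507, minus strand) encodes a small secreted inhibitor of neutrophil elastase and other serine proteases. Its levels in the VC tumours 1 to 4 were 3342, 6184, 4226 and 5128 CPM. In the miR-21-KD tumours they were 142, 1087, 607 and 492 CPM. All 4 knockdown tumours lay below all 4 control tumours, and the lowest, number 1, was 7.68-fold below the highest, number 2. The means were 4720 ± 1218 and 582 ± 391 CPM, a log2 difference of -3.02 with a standard error of 0.54.

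Wfdc2 (chr2:164562579-164568510, plus strand) encodes a related secreted protein with WAP domains, known as HE4 in human ovarian carcinoma. The VC tumours 1 to 4 had 246, 350, 361 and 284 CPM. The miR-21-KD tumours had 43.3, 241, 143 and 120 CPM. The groups did not overlap, yet the gap was narrow, since knockdown tumour 2 was within a few CPM of control tumour 1. The log2 difference was -1.18 with a standard error of 0.42, on means of 310 ± 54.7 and 137 ± 81.5 CPM.

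Slpi and Wfdc2 flank a stretch of chromosome 2 with 5 other tested genes, none of which passed the test. Their log2 differences were 1.75 for Matn4 (adjusted p = 0.0864), -0.30 for Sdc4 (adjusted p = 0.190), 0.05 for Sys1 (adjusted p = 0.776), -0.03 for Dbndd2 (adjusted p = 0.911) and -0.18 for Pigt (adjusted p = 0.0982, edgeR). For Pigt all 4 knockdown tumours were below all 4 control tumours, as for the flanking pair, and for the other 4 genes the groups overlapped.

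Ehf (chr2:103263433-103303278, minus strand) encodes an ETS transcription factor restricted to epithelia. The VC tumours 1 to 4 had 21.3, 3.27, 7.88 and 5.80 CPM and the miR-21-KD tumours 35.2, 4.01, 25 and 26.1 CPM. The groups overlapped, because control tumour 1 was high and knockdown tumour 2 was lower than 3 of the control tumours. The log2 difference was 1.23 with a standard error of 0.70, and without VC tumour 1 that of Ehf was 1.995.

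Pigr (chr1:130826684-130852249, plus strand) encodes the polymeric immunoglobulin receptor, which carries dimeric immunoglobulin A across epithelium. The VC tumours 1 to 4 had 1.11, 0, 0.788 and 2.04 CPM and the miR-21-KD tumours 4.61, 0.157, 5.28 and 3.60 CPM. Knockdown tumours 1, 3 and 4 were above all control tumours, and knockdown tumour 2, with 2 counts, was at the level that a count of 0 allows. The log2 difference was 1.78 with a standard error of 0.96, and without VC tumour 4 that of Pigr was 2.39.

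Muc4 (chr16:32735886-32782391, plus strand) encodes a large membrane mucin that can bind ERBB2. The VC tumours 1 to 4 had 2.58, 0.239, 1.26 and 0.409 CPM and the miR-21-KD tumours 3.23, 0.629, 3.57 and 1.72 CPM. The groups overlapped over most of their range, and the log2 difference was 1.01 with a standard error of 0.73. Without VC tumour 1 that of Muc4 was 1.82.

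Cftr (chr6:18170687-18322768, plus strand) encodes the chloride and bicarbonate channel that is defective in cystic fibrosis. It had 1, 3, 4 and 1 counts in the VC tumours and 8, 9, 2 and 2 in the miR-21-KD tumours, too few for the fit. Knockdown tumours 1 and 2 were above all control tumours, and tumours 3 and 4 were among them. The ratio of 21 to 9 counts, adjusted for library size, was 2.37, with a 95% interval of 1.04 to 5.88 that does not include the spread between tumours. Agr2 (chr12:35992907-36004087, plus strand), a disulphide isomerase of the endoplasmic reticulum that goblet cells need to fold mucins, had 0 counts in all 8 tumours. A count of 0 allows up to 3 counts per tumour, or 0.221 to 0.245 CPM, so no fold is given for it.

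Per length of exon the 10 genes spanned a wide range of levels. In VC tumours Slpi had 5244 ± 1354 and Wfdc2 365 ± 64.5 RPKM (CPM divided by kilobases of exon), and the third in order, Ehf, had 2.08 ± 1.75. In miR-21-KD tumours the order was Slpi (646 ± 434 RPKM), Wfdc2 (161 ± 96.0), Clca1 (94.95 ± 97.3), Tmprss2 (21.95 ± 15.4), Ehf (4.90 ± 2.86) and Dmbt1 (3.30 ± 2.11). In both groups Pigr, Muc4 and Cftr stayed below 2 RPKM in every tumour. In VC tumours the ranges of Slpi, Wfdc2 and Ehf were apart, while every later neighbour with reads overlapped with the next. In miR-21-KD tumours the ranges of all neighbours among the 9 genes with reads overlapped, Slpi and Wfdc2 included. Clca1 and Tmprss2 were below 4 RPKM in every control tumour and spanned 9.92 to 223 and 5.87 to 37.5 RPKM in the knockdown tumours, and the antiprotease Slpi had the highest mean of the 10 in both groups.

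The tumours of 1 group were far from uniform for these genes. The median SD of log2 CPM within a group was 1.33 in miR-21-KD and 1.04 in VC tumours over the 8 fitted genes, against 0.24 and 0.20 over all tested genes. Knockdown tumour 2 was the lowest of its group for Tmprss2, Dmbt1, Clca1, Pigr, Muc4 and Ehf and the highest for Cftr, Slpi and Wfdc2. Control tumour 1 was the highest of its group for Tmprss2, Clca1, Muc4 and Ehf, and control tumour 2 the lowest for Tmprss2, Pigr, Muc4 and Ehf. In both groups, then, the same tumour often ranked at one end for several of these genes.

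The labels number the tumours from 1 to 4 in each group, and same-numbered tumours deviated together, so differences within a number are given as well. For Tmprss2 they were 3.95, 5.07, 7.35 and 6.93 in log2 for numbers 1 to 4. For Dmbt1 they were 6.93, 3.39, 7.30 and 6.07, and for Clca1 3.24, 2.49, 7.88 and 8.91. The knockdown tumour was higher in all 4 pairs for these genes, and also for Pigr (0.77 to 2.52), Ehf (0.28 to 2.14) and Muc4 (0.31 to 1.73). It was lower in all 4 pairs for Slpi (-4.56 to -2.51) and Wfdc2 (-2.5 to -0.54), and higher in 3 of 4 pairs for Cftr. Pair 2 had the smallest difference of the 4 for Dmbt1, Clca1, Ehf, Slpi and Wfdc2.

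**Figure D2:**
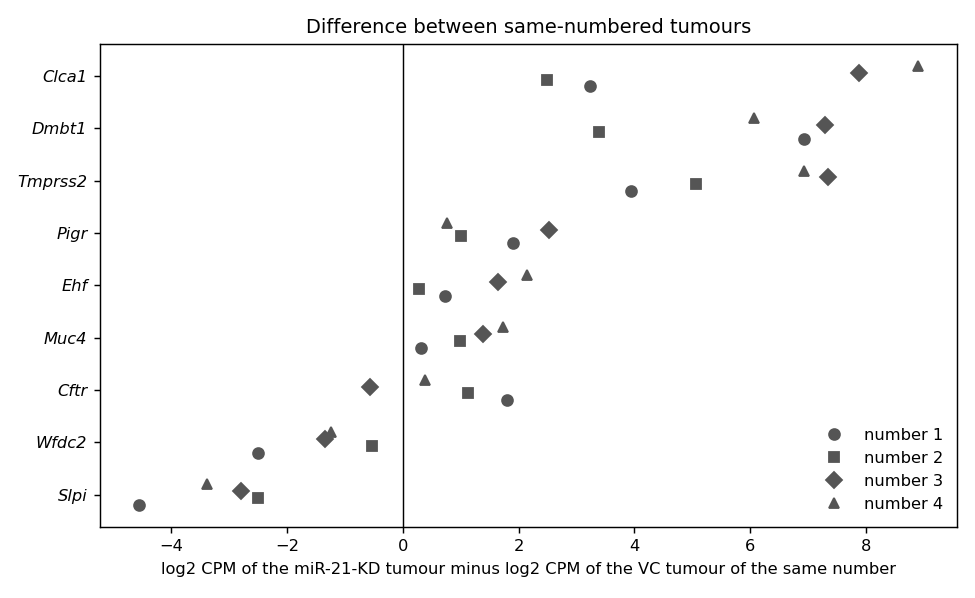
Difference in log2 CPM between the miR-21-KD and the VC tumour of the same number for the 9 mucosal secretory genes with reads, with 1 marker shape per number. Clca1 spans 2.49 to 8.91, Pigr, Ehf and Muc4 lie between 0.28 and 2.52, and Wfdc2 and Slpi lie below 0 in all 4 pairs.

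Tumour epithelium was checked by 9 defining markers, whose summed level was 1306 to 2264 CPM in VC and 903 to 2016 CPM in miR-21-KD tumours, so epithelial transcripts were present in every sample. Of these markers 7 rose and 1 fell, with 2 falls in the paired fit. The genes named here from the list were chosen after their values were seen. Krt19, a keratin of simple epithelium, rose from 21.6 ± 16.9 to 263 ± 142 CPM (log2 difference 3.60, or 4.28 without VC tumour 1, adjusted p = 0.00688, edgeR). Epcam, an adhesion molecule of epithelium, rose by 1.93 (adjusted p = 0.0182) and Cldn4, a tight junction protein, by 2.60 (3.38 without VC tumour 1, adjusted p = 0.0245). Krt18, the keratin with the most reads of the list, fell by 1.15 (adjusted p = 0.0374), and its partner Krt8 had a log2 difference of -0.88 (adjusted p = 0.0870, and 0.0413 in the paired fit). Without 1 tumour, the call of Krt18 was lost for VC tumours 1 (0.0660), 2 (0.0881) and 3 (0.0890) and miR-21-KD tumours 3 (0.0601) and 4 (0.0941). That of Cldn4 was lost for VC tumours 2 (0.0596) and 3 (0.0616) and miR-21-KD tumours 1 (0.0501), 3 (0.0618) and 4 (0.0589), and that of Epcam for VC tumour 3 (0.0526). The rise of Cdh1 was lost without VC tumour 2 (0.0537), and that of Krt7 without miR-21-KD tumour 3 (0.0511) or 4 (0.05075). Cldn7 lost its rise without any 1 tumour other than VC tumour 1 or miR-21-KD tumour 2 (0.0820 to 0.105). Knockdown tumour 2 had the lowest Epcam, Krt19 and Cldn4 of its group, at 40.6, 104 and 9.98 CPM, as it had the lowest Tmprss2, Dmbt1 and Clca1. Krt7, which also rose, did not share this. Its log2 difference of 1.255 became 1.433 without miR-21-KD tumour 1 and 1.285 without miR-21-KD tumour 2, so number 2 was not its lowest. Knockdown tumour 1 had the lowest Krt8 and Krt18, at 173 and 188 CPM, as it had the lowest Slpi and Wfdc2. The part of these shifts in the levels of the 10 genes was not tested.

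**Figure D3:**
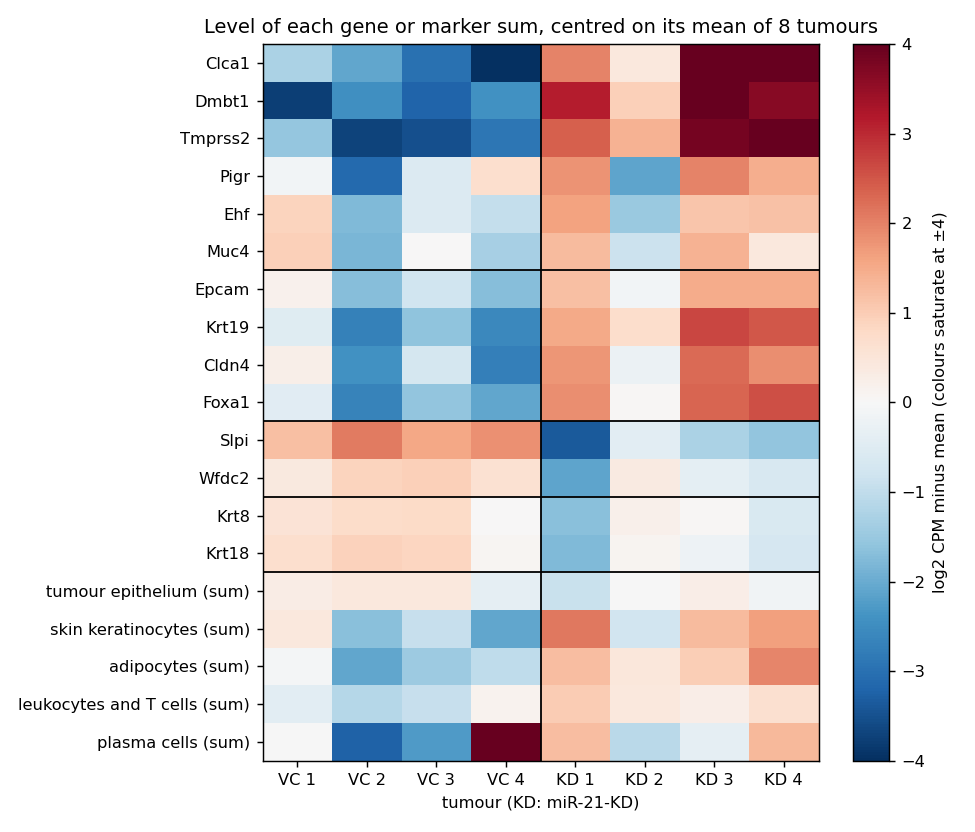
Levels in each tumour as log2 CPM minus the mean of the 8 tumours, for 6 of the 7 mucosal secretory genes with higher means in miR-21-KD tumours (Cftr, with few counts and its highest level in KD 2, is not drawn), Slpi and Wfdc2, epithelial genes and summed marker lists, with red above and blue below the mean. KD 2 is the palest or bluest knockdown column for Tmprss2, Dmbt1, Clca1, Pigr, Ehf and Muc4 as for Epcam, Krt19, Cldn4 and Foxa1, and KD 1 is the bluest for Slpi, Wfdc2, Krt8 and Krt18. The epithelial genes drawn were chosen after their values were seen, and Krt7, a listed marker that rose without this pattern, is not drawn.

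Lists of other tissues that make mucosal secretions were read in the same way. The intestinal markers Cdx1, Cdx2 and Fabp2 were at 0 in all tumours, and 0 of 3 tested intestinal markers passed the test. The 7 intestinal markers summed to 61.6 to 118.5 CPM in VC and 20.9 to 114 CPM in miR-21-KD tumours, most of it Gpa33, a surface antigen of gut epithelium, with 80.05 ± 22.8 and 45.8 ± 30.4 CPM. The salivary markers Smgc, Dcpp1, Dcpp2 and Pip and the airway markers Scgb3a2, Sftpa1, Nkx2-1 and Bpifa1 were also at 0. The 7 salivary markers summed to 0.638 to 2.88 CPM in VC and 2.83 to 18.5 CPM in miR-21-KD tumours, of which Amy1, an amylase, rose from 1.21 ± 0.97 to 8.77 ± 6.52 CPM (log2 difference 2.84, or 3.59 without VC tumour 1 and 2.23 without miR-21-KD tumour 4, adjusted p = 0.0143, edgeR). Amy1 entered the test through its knockdown counts. The 8 airway markers never exceeded 1.30 CPM in sum. Among 6 tested mammary secretory markers 1 rose and 1 fell (3 and 0 in the paired fit), with sums of 34.2 to 220 CPM in VC and 73.1 to 308 CPM in miR-21-KD tumours.

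Markers of some neighbouring host tissues differed between the groups too. All 6 adipocyte markers rose, and their sum was 101 to 409 CPM in VC and 582 to 1664 CPM in miR-21-KD tumours. Skin keratinocyte markers summed to 15.3 to 85.4 CPM in VC and 37.8 to 275 CPM in miR-21-KD tumours, with 2 of 5 tested genes higher, Krt5 and Krt14, which mammary basal cells also express, and 1 lower, Krt10 (3 and 1 in the paired fit). The call of Krt5 was lost without any 1 tumour other than VC tumour 1 or miR-21-KD tumour 2 (adjusted p = 0.0548 to 0.0743, edgeR), and that of Krt10 without any 1 miR-21-KD tumour (0.0542 to 0.0859). Without VC tumour 1 the log2 difference of Krt5 went from 2.90 to 3.72, that of Krt14 from 3.08 to 3.75 and that of Krt10 from -1.94 to -0.94. Of 6 markers of leukocytes and T cells 5 rose, with sums of 160 to 391 and 426 to 717 CPM. Without VC tumour 3 only Cd4 kept its call (adjusted p = 0.0427, edgeR), and Ptprc, Cd3d, Cd3e and Cd3g lost theirs (0.0525 to 0.0972). Cd3d also lost its call without miR-21-KD tumour 1 or 4, and Cd3g without VC tumour 1 or 2 or miR-21-KD tumour 1 or 4. Plasma cell markers summed to 1215 CPM in VC tumour 4, against 6.06 to 140.5 CPM in the other 7 tumours. B cell markers summed to 6.64, 2.31, 3.47 and 129 CPM in VC tumours 1 to 4 and to 12.5 to 82.6 CPM in miR-21-KD tumours. None of the tested markers of either list passed the threshold, and Cxcl13, a chemokine on the B cell list, passed it in the paired fit (adjusted p = 0.0150, edgeR). Without VC tumour 4, Cxcl13 passed (0.0157), as did Cd79b (log2 difference 2.42, against -0.69 with it, adjusted p = 0.0235). So did the plasma cell marker Mzb1 (2.01, against -2.62, adjusted p = 0.0332), while Cd79a, Ms4a1, Jchain and Derl3 did not. The log2 difference of Cxcl13 was 1.77, or 3.05 without VC tumour 4 and 1.18 without miR-21-KD tumour 4. Skeletal muscle markers were at most 5.58 CPM. Whether any of these tissues contributed to the 10 genes was not tested.

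Related genes outside the 10 were read from 7 lists of 167 genes, which were written with earlier results of these data known. Of these, 96 were tested, 39 rose, 4 fell and 53 did not pass, with a median log2 difference of 0.79 against -0.01 over all tested genes. A further 17 listed genes were at 0 in all tumours. Over all tested genes the shares that rose and fell were the 19.6% and 19.5% given above. With the tumour number as a block, in the paired fit, 44 rose and 9 fell. In that fit the calls over all tested genes went from 2826 rises and 2800 falls to 3309 and 3176. The counts of rises and falls in the lists depended on single tumours: they were 24 and 1 without VC tumour 2, 19 and 2 without VC tumour 3, 25 and 2 without miR-21-KD tumour 3 and 23 and 1 without miR-21-KD tumour 4. Without miR-21-KD tumour 1 there were 25 rises, without VC tumour 4 there were 7 falls, and without miR-21-KD tumour 2 there were 8 falls. The calls over all tested genes moved too, to 1702 rises and 1588 falls without VC tumour 2 and 1449 and 1487 without VC tumour 3.

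**Figure D4:**
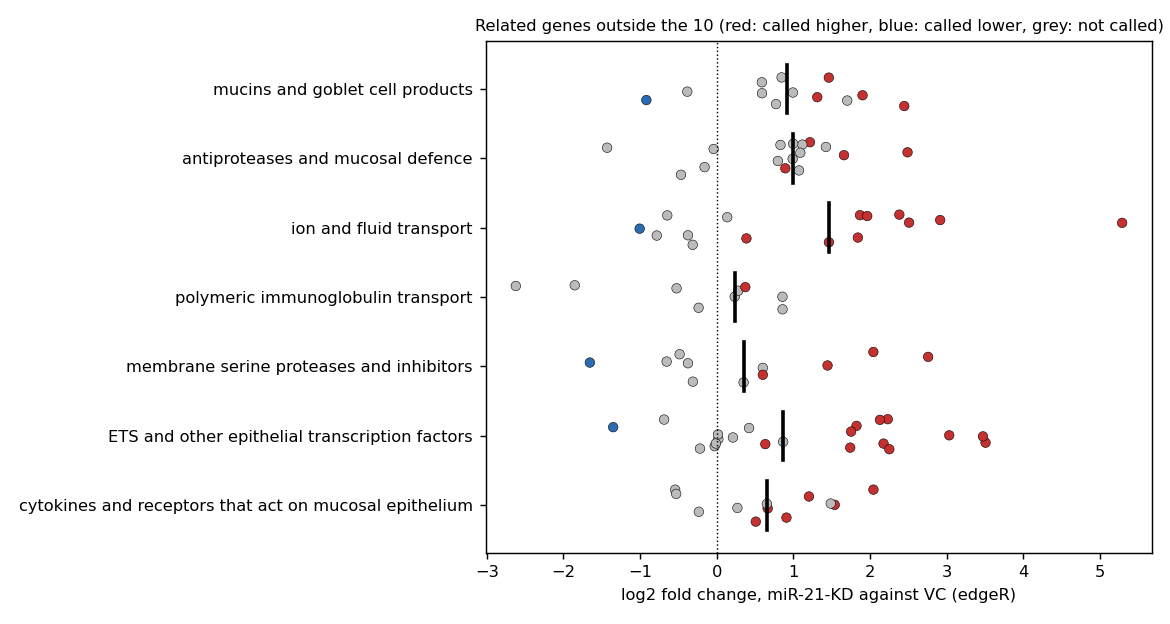
Log2 difference, miR-21-KD minus VC, of the tested genes of 7 lists related to mucosal secretion, with 1 point per gene, a bar for the median of the list, red for genes that rose, blue for genes that fell and grey for the rest (edgeR, adjusted p of 0.05). The medians lie between 0.23 for polymeric immunoglobulin transport and 1.46 for ion and fluid transport.

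The list of mucins and goblet cell products, to which Clca1, Agr2 and Muc4 relate, held 12 tested genes of 33, of which 4 rose and 1 fell, with a median log2 difference of 0.92. Creb3l1, a transcription factor of secretory cells, rose from 19.8 ± 9.02 to 49.2 ± 9.23 CPM (log2 difference 1.31, adjusted p = 0.0180, edgeR). Clca3a2, a neighbour of Clca1 on chromosome 3, rose from 13.6 ± 8.42 to 74.4 ± 43.8 CPM (2.45, adjusted p = 0.0241), whereas Clca2, on the other side of Clca1, fell from 17.2 ± 4.90 to 9.10 ± 2.04 CPM (-0.92, adjusted p = 0.0211). Clca3a1, the other tested gene of the family, had a log2 difference of 0.99 (adjusted p = 0.109, and 0.0141 in the paired fit). Similar genes of this family can share reads, so their values are less certain. Muc5b, Tff2 and Ern2, genes of mucus-secreting cells, were at 0 in all tumours, as Agr2 was. Fcgbp, a protein of goblet cell mucus, rose from 76.5 ± 39.1 to 286 ± 166 CPM (1.90, adjusted p = 0.0360), and the membrane mucin Muc13 rose from 2.32 ± 1.70 to 6.44 ± 3.17 CPM (1.46, or 2.13 without VC tumour 1, adjusted p = 0.0464). Both were lost in the paired fit (0.0643 and 0.0578). Fcgbp was also lost without any 1 tumour other than VC tumour 1 or miR-21-KD tumour 2 (0.0702 to 0.0925), and so was Muc13 (0.0535 to 0.129). The secreted mucin Muc2 had a log2 difference of 0.77 (adjusted p = 0.167) and the membrane mucin Muc1 of 0.85 (adjusted p = 0.0723, and 0.0440 in the paired fit). The rise of Clca3a2 was lost in the paired fit (adjusted p = 0.0585) and without VC tumour 2 (0.0557), VC tumour 3 (0.0692), miR-21-KD tumour 1 (0.0541), 3 (0.0530) or 4 (0.0639). The fall of Clca2 was lost without VC tumour 2 (0.0579) or miR-21-KD tumour 3 (0.0549) or 4 (0.0546), and the rise of Creb3l1 without VC tumour 3 (0.0542).

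Among antiproteases and proteins of mucosal defence, the class of Slpi, Wfdc2 and Dmbt1, 16 of 28 genes were tested, of which 4 rose and none fell (6 and 0 in the paired fit), with a median of 0.99. Wfdc17, a WAP domain protein of macrophages, rose from 138 ± 52.6 to 321 ± 90.4 CPM (log2 difference 1.22, adjusted p = 0.0148, edgeR). Serpinb1a, an inhibitor of neutrophil proteases, rose from 15.3 ± 4.17 to 28.5 ± 5.41 CPM (0.90, adjusted p = 0.0180). The other rises were those of Prtn3, a neutrophil protease, and Ltf, the iron-binding lactoferrin of milk and neutrophil granules (1.66 and 2.49, adjusted p = 0.0426 and 0.0212). The call of Prtn3 was lost without any 1 tumour other than VC tumour 4 or miR-21-KD tumour 2 (0.0533 to 0.122), and that of Ltf without VC tumour 2 (0.0549) or 3 (0.0617) or miR-21-KD tumour 3 (0.0531) or 4 (0.0564). So none of the tested relatives of Slpi in this list fell past the threshold. Wfdc12, also a WAP domain protein, had a log2 difference of -1.43 (adjusted p = 0.132). The rise of Serpinb1a was lost without VC tumour 3 (0.0520) or miR-21-KD tumour 4 (0.0519).

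Ion and fluid transport, the class of Cftr, had 9 of 15 tested genes higher, 1 lower and a median of 1.46. Slc4a4, a sodium bicarbonate cotransporter, rose from 4.47 ± 1.49 to 16.1 ± 2.64 CPM (log2 difference 1.84, adjusted p = 0.00501, edgeR). Aqp5, the water channel of salivary and airway glands, rose from 2.94 ± 0.61 to 22.2 ± 10.4 CPM (2.92, adjusted p = 0.00520). Foxi1, a transcription factor of ionocytes, had 0, 2, 2 and 4 counts in the VC tumours 1 to 4 and 69, 15, 89 and 156 in the miR-21-KD tumours (adjusted p = 0.00629). Its ratio of 329 to 8 counts, adjusted for library size, was 41.8 with a counting interval of 21 to 97.6, and it entered the test through its knockdown counts. Subunits of the epithelial sodium channel, Scnn1a and Scnn1b, rose by 1.87 and 2.38, and Slc12a2, the cotransporter that loads secretory cells with chloride, by 1.46 (adjusted p = 0.0118, 0.00922 and 0.00964). Scnn1b had 3 to 8 counts per control tumour and also entered the test through its knockdown counts. Kcne3, a potassium channel subunit, fell from 5.91 ± 1.32 to 2.94 ± 0.93 CPM (-1.01, adjusted p = 0.0201). Its fall was lost without VC tumour 2 (0.0578), VC tumour 3 (0.0501) or miR-21-KD tumour 4 (0.0587). Foxi1, Scnn1a, Scnn1b and Slc12a2 were chosen after their values were seen.

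Polymeric immunoglobulin transport, the class of Pigr, had 1 rise among 9 tested genes of 13 and a median of 0.23. The rise was that of Rab11fip5, a regulator of recycling endosomes, from 177 ± 24.0 to 230 ± 20.7 CPM (log2 difference 0.37, adjusted p = 0.0365, edgeR), and it was lost when any 1 tumour other than miR-21-KD tumour 2 was left out (adjusted p = 0.0530 to 0.0977). The cargo side of this pathway did not pass the test: Jchain, the joining chain of dimeric immunoglobulin A, had 277 ± 510 and 76.6 ± 55.2 CPM (log2 difference -1.85, adjusted p = 0.337), and Igha had 10.9 ± 12.6 and 19.75 ± 9.503 CPM (adjusted p = 0.473). VC tumour 4 alone had 1040 CPM of Jchain, against 5.19 to 51.8 CPM in the other control tumours, and in the paired fit its log2 difference turned to 0.70 (adjusted p = 0.583). Without VC tumour 4 the log2 difference was 1.78 for Jchain and 2.01, against 0.86 with it, for Igha.

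Membrane serine proteases and their inhibitors, the class of Tmprss2, had 11 tested genes of 25, of which 4 rose and 1 fell, with a median of 0.35. Furin, a proprotein convertase, rose from 241 ± 35.2 to 366 ± 27.0 CPM (log2 difference 0.60, adjusted p = 0.00922, edgeR). Tmprss4, a paralogue of Tmprss2, rose from 0.385 ± 0.334 to 2.69 ± 1.09 CPM (2.76, or 3.43 without VC tumour 1, adjusted p = 0.0142), and it entered the test through its knockdown counts. Tmprss6, a liver protease that controls hepcidin, fell from 1.78 ± 0.09 to 0.561 ± 0.261 CPM (-1.66, adjusted p = 0.0101), and it entered the test through its control counts. St14, which encodes matriptase, and its inhibitors Spint1 and Spint2 had log2 differences of 0.35, -0.65 and -0.48 (adjusted p = 0.158, 0.0956 and 0.0785). In the paired fit Spint1 and Spint2 passed (0.0360 and 0.0461), which made 3 falls in the list. Hpn, which encodes the related protease hepsin, rose from 2.47 ± 0.72 to 6.75 ± 2.53 CPM (1.45, adjusted p = 0.0155) and kept its call without any 1 tumour. Tmprss13, another relative of Tmprss2, rose as well (2.04, or 3.24 without VC tumour 1, adjusted p = 0.0484), so that the direction was not uniform in the family. Tmprss13 was at 0.327 to 0.709 CPM in the control tumours other than VC tumour 1 and entered the test through its knockdown counts. The call of Tmprss13 was lost without any 1 tumour other than VC tumour 1 or miR-21-KD tumour 2 (0.0787 to 0.121).

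Of 21 tested genes in the list of ETS and other epithelial transcription factors, the class of Ehf, 11 rose and 1 fell, with a median of 0.87. The list also holds the epithelial splicing regulators Esrp1 and Esrp2, which both rose and are among the 11. Without VC tumour 3 only Foxa1, Ovol1, Tfcp2l1 and Esrp2 of the 11 kept their call. Ets2, Grhl1, Grhl2 and Ovol2 lost theirs (adjusted p = 0.0524, 0.0502, 0.0758 and 0.0541, edgeR), as did Esrp1, Spdef and Elf5. The rise of Esrp1 (2.25, or 3.25 without VC tumour 1, adjusted p = 0.0295) was lost without VC tumour 2 (0.0746) or 3 (0.0810) or miR-21-KD tumour 1 (0.0634), 3 (0.0678) or 4 (0.0717). Foxa1, a forkhead factor of luminal epithelium, rose from 3.01 ± 2.22 to 33.7 ± 18.7 CPM (log2 difference 3.47, or 4.11 without VC tumour 1, adjusted p = 0.00760, edgeR). Its levels were 6.19, 1.20, 2.76 and 1.88 CPM in the VC tumours 1 to 4 and 31.3, 8.73, 43.3 and 51.7 CPM in the miR-21-KD tumours, so that tumour 2 was the lowest of each group, as for Ehf. Esrp2 rose from 2.53 ± 1.04 to 8.59 ± 3.002 CPM (1.75, adjusted p = 0.00989). Spdef, the ETS factor of goblet cells, had 11, 0, 0 and 0 counts in the VC tumours 1 to 4 and 27, 8, 41 and 50 in the miR-21-KD tumours. The groups overlapped, since control tumour 1 was at 0.811 CPM and knockdown tumour 2 at 0.629 CPM. Spdef passed the test (adjusted p = 0.0288), and the ratio of 126 to 11 counts, adjusted for library size, was 11.6 with a counting interval of 6.29 to 23.9. It entered the test mostly through its knockdown counts. All 11 control counts came from VC tumour 1, without which the controls are at 0 and no ratio is given. Its call was lost without VC tumour 2 (0.0695) or 3 (0.0745) or miR-21-KD tumour 1 (0.0528), 3 (0.0673) or 4 (0.0749). Etv4, an ETS factor downstream of growth factor signalling, fell from 123 ± 26.7 to 48.3 ± 26.8 CPM (-1.35, adjusted p = 0.0260), and this was lost without VC tumour 2 (0.0657), VC tumour 3 (0.0671), miR-21-KD tumour 3 (0.0557) or miR-21-KD tumour 4 (0.0729). In the paired fit 12 of the list rose and 2 fell. Of the other epithelial ETS factors, Elf5 rose by 1.82 (adjusted p = 0.0469), and Elf3 had a log2 difference of 0.87 (adjusted p = 0.0600). The rise of Elf5 was lost without VC tumour 2 (0.0976), 3 (0.117) or 4 (0.0699) or miR-21-KD tumour 1 (0.0859), 3 (0.106) or 4 (0.113). Spdef, Elf3 and Elf5 were chosen after their values were seen.

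Of 12 tested cytokines and receptors that act on mucosal epithelium, 6 rose and none fell, with a median of 0.66. The rises of Il4, Il10rb and Ifngr1 were lost without VC tumour 2 or 3 or miR-21-KD tumour 1 or 4 (adjusted p = 0.0501 to 0.0862, edgeR). Il4 also lost its call without miR-21-KD tumour 3 (0.0722), while Tnf, Il13 and Il4ra kept theirs without any 1 tumour. Il13, a type 2 cytokine known for its action on goblet cells, rose from 4.32 ± 1.88 to 17.8 ± 7.30 CPM (log2 difference 2.05, adjusted p = 0.00953, edgeR). Its levels were 4.94, 2.31, 3.39 and 6.62 CPM in the VC tumours 1 to 4 and 18.8, 7.86, 25.4 and 19.3 CPM in the miR-21-KD tumours. Il4ra, the receptor chain shared by interleukins 4 and 13, rose from 540 ± 91.9 to 1014 ± 167 CPM (0.91, adjusted p = 0.00694). The second receptor chain, Il13ra1, and the transcription factor Stat6 had log2 differences of -0.54 and -0.23 (adjusted p = 0.0600 and 0.0636, and 0.0468 and 0.0425 in the paired fit, where 8 of the list rose and 2 fell).

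The genes most alike in pattern were sought over the 8 tumours by the root mean square difference in centred log2 CPM from the mean of the 10. Among the 8 nearest were Tuba8 (0.189), Esrp2 (0.207), Gpt2 (0.214), Tmem54 (0.230), Eva1a (0.237), Tmc4 (0.239) and Mmp9 (0.242). These 7 rose, with log2 differences of 1.62 to 1.86, which the likeness itself required. Because that mean joins genes that were higher and genes that were lower, likeness was also read for single genes, a choice made after the values were seen. Ptn was nearest to Tmprss2 (0.427), Chil3 to Dmbt1 (0.917) and Sprr2a3, whose gene has near-identical copies, to Clca1 (0.543). Usp43 was nearest to Wfdc2 (0.130) and Ano3 to Ehf (0.256). No gene was the nearest to more than 1 of these 5.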

How the data were processed

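RNA sequencing of 8 whole tumours was used, 4 VC and 4 miR-21-KD. The values deposited by the authors are raw read counts, not normalized, for genes named by Entrez identifier. The submitters' processing notes name Subread, featureCounts, edgeR, limma and the build mm10; their versions, the annotation and the strand setting are not given in the sources used here, so overlapping and similar genes cannot be told apart. All columns were used, with 0 left unmapped. Symbols matched 25275 of 27179 identifiers. The study's text names an earlier day of recovery than the labels.

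In R 4.3.3 with edgeR 4.0.16, filterByExpr (minimum count 10, minimum total 15) left 14382 genes and removed 12797. Libraries were scaled with TMM, the robust quasi-likelihood test compared the groups, and p-values were adjusted by Benjamini and Hochberg over all tested genes with a threshold of 0.05. Log2 CPM used a prior count of 2, and exon lengths came from GENCODE M21 (GRCm38). The alternatives were library size alone, upper-quartile scaling, DESeq2 1.42.0, limma-voom 3.58.1, no filter, at least 10 counts in every tumour, a replicate block, a prior count of 2 in the fit and each tumour left out in turn. The test was checked on simulated data with known changes. Intervals and limits of 3 counts cover counting error only. No pair of tumours in a group was alike within sampling noise (chi-square per degree of freedom of 12.6 or more). The labels call the samples separate tumours and name no mouse, so p-values measure the spread between them.

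The 10 genes, the gene lists and the rule for naming genes were chosen with earlier results of these data known. The rule names the 10 genes, the 2 genes of smallest adjusted p in each direction of each list, the 8 genes most alike in pattern, and defining markers at 0. Other genes were named after their values were seen. The results of some genes are not reported here. After removal of group means, same-numbered tumours correlated across genes at 0.272, 0.421, 0.175 and 0.376, all above 0.1, so the numbers were taken to pair the tumours. The mean for other pairs, -0.105, follows largely from that removal and is no separate contrast. The pairing comes from these correlations and not from the labels.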

Additional observations from a re-analysis of the deposited data

Results flagged for a closer look

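Of 158 groups of 4 tumours examined for most of the genes named in the text, 14 held a tumour apart from the other 3, with a gap above Dixon's 95% critical value for 4 samples. Chance does this in about 1 group in 20. None of the 10 mucosal secretory genes met this criterion, although tumour 2 was the lowest of the knockdown group for 6 of them.

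VC tumour 1 stood above the other 3 control tumours for 6 genes. Amy1 had 2.655 CPM there against 0.6382 to 0.8174, Krt10 15.78 against 2.522 to 3.76, Muc13 4.867 against 1.39 to 1.516, Tmprss13 3.466 against 0.327 to 0.7093, Spdef 0.8112 against 0, and Matn4 1.18 against 0.1596 to 0.3152 CPM. VC tumour 4 had 1040 CPM of Jchain against 5.186 to 51.77. Knockdown tumour 2 was below the other 3 for Serpinb1a (20.44 against 30.47 to 32.25 CPM), Slc12a2 (44.96 against 120.6 to 126.8 CPM), Esrp1 (4.952 against 17.86 to 19.07 CPM) and Matn4 (0.3144 against 1.867 to 2.102 CPM). Il4ra had 1262 CPM in knockdown tumour 3 against 900.1 to 961.5. Knockdown tumour 4 was above the others for Cxcl13 (15.89 against 4.545 to 6.131 CPM) and Prtn3 (10.88 against 3.718 to 4.707 CPM).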

How the results depend on the processing

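For the 8 fitted mucosal secretory genes all 123 values under the alternatives differed from those reported by less than 1 pooled within-group SD of log2 CPM, and none changed sign. That SD is wide for these genes, so the criterion was lenient. Muc4 going from 1.01 to 1.82 and Ehf from 1.23 to 1.995 without VC tumour 1 still met it. Dmbt1 was 6.21 with a prior count of 2. The median log2 difference of the 8 genes was 1.15 to 1.92 when 1 tumour was left out and 1.43 to 1.58 otherwise. Among 24 other named genes, 329 of 357 values kept direction and side of the threshold, 28 lost the threshold and none reversed; Clca3a2 also lost it with limma-voom (adjusted p = 0.0796) and Rab11fip5 without the filter (0.0686). The falls among related genes were 7 with DESeq2 and 9 with the replicate block, against 4; the cause was not tested. With the block, Clca3a2, Fcgbp and Muc13 lost their call and Muc1, Clca3a1, Krt8, Spint1, Spint2, Il13ra1, Stat6 and Cxcl13 gained one, with values given beside each; no other call changed among the genes named from the lists. With 1 tumour left out, genes higher numbered 1449 to 3290 and genes lower 1487 to 3550, against 2826 and 2800, and related genes 19 to 47 higher and 1 to 8 lower, where fewer samples entered each fit. Over all genes, rises were 1702, 1449, 1862 and 1754 without VC tumours 2 and 3 and miR-21-KD tumours 1 and 4, and falls 1588, 1487, 1768 and 1612 without VC tumours 2 and 3 and miR-21-KD tumours 3 and 4. Of the 8 genes most alike in pattern, 5 were shared with a prior count of 0.5. At least 10 counts in every tumour gave no median of the 8, as it removed some of them. Depth limits Agr2, Cftr, and Dmbt1 and Pigr in VC tumours.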
